A study of Homo sapiens with 22 samples.

Results

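The 8 genes of the keratin family described here were measured in MDA-MB-231 cells, a human breast cancer line. They are the epithelial keratins KRT7, KRT8, KRT18, KRT19 and KRT80, the hair-type keratins KRT81 and KRT86, and KRTAP2-3, a keratin-associated protein gene. They were chosen by name from 60669 annotated genes, with earlier results of the same tables in view, so their counts and p-values describe them and are not independent evidence of an effect. Each gene had 1 row in every table.

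RNA was sequenced in 22 libraries, 11 groups of 2, deposited in 3 tables that are compared only within themselves. The first, called the knockdown table, holds cells carrying shM3 with METTL3-WT added back (shM3_WT), shM3 with METTL3-CD added back (shM3_CD), shM3 alone, and B5. These were kept for 2 to 3 months. The DMSO table holds cells given 0.5 µM I-BET151, 0.5 µM MOLIB (Molib), 0.5 µM JQ1, or DMSO for 3 days. The CTRL table holds MW-JQ1 cells given 0.5 µM JQ1, cells given 0.5 µM JQ1 alone, and CTRL, also at 3 days. The labels give the genotype of every group as WT, and do not spell out B5, CD or MW, name the hairpin, or say whether replicates came from separate cultures or clones. P-values therefore measure only the spread between these libraries, which may be technical. The JQ1 columns of the DMSO table share their names with those of the CTRL table. They were assigned by elimination, without a replicate number, and appear below as library a and library b.

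Keratins are the intermediate filament proteins of epithelia and hair. Each filament pairs a type I (acidic) with a type II (basic) keratin. KRT8 and KRT18 are the first pair made in simple epithelia such as the luminal cells of the breast, KRT7 and KRT19 join them there, and KRT80 is a further type II keratin. KRT81 and KRT86 are type II keratins of the hair shaft, where small cysteine-rich KRTAP proteins such as KRTAP2-3 cross-link the filaments. JQ1 and I-BET151 block the bromodomains of BET proteins, which bind acetylated chromatin and help RNA polymerase II to elongate. JQ1 is a thienotriazolodiazepine and I-BET151 a dimethylisoxazole. METTL3 is the catalytic subunit of the complex that writes m6A, a methyl mark on adenosines of RNA, often within the letters GGACT.

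The genes lie in the 2 keratin clusters of the genome (hg38, GENCODE 29 by gene ID). On chromosome 12 are the type II genes KRT80 (52168996 to 52192000, minus strand), KRT7 (52232520 to 52252186, plus), KRT86 (52249300 to 52309163, plus), KRT81 (52285913 to 52291534, minus) and KRT8 (52897187 to 52949954, minus), and next to KRT8 the type I gene KRT18 (52948871 to 52952901, plus). KRTAP2-3 (41059240 to 41060114, minus) and the type I gene KRT19 (41523617 to 41528308, minus) are on chromosome 17. The annotated KRT86 gene contains all of KRT81 on the other strand and overlaps 2887 bases of KRT7 on its own strand. KRT8 and KRT18 overlap by 1084 bases on opposite strands. Whether the authors' counting used strand is not given in the sources used here, so reads from these overlaps cannot be assigned with certainty.

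A second uncertainty is near-identity, shown here because it bears on which row a read falls in. The coding sequences of KRT81 and KRT86 (GENCODE 29) are 89.7% identical and share a run of 605 bases. Their alignment holds 80 substitutions and 77 gap positions. Among stretches of equal length aligned without a gap, the most different, coding bases 1207 to 1326, holds 19 differences, in capitals:
KRT81: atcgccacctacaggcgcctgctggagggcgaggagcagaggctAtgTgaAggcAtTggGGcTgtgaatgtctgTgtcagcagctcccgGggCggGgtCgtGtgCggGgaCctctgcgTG
KRT86: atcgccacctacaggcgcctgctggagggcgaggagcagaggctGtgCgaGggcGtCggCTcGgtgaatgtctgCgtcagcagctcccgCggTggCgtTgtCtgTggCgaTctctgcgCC

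KRTAP2-3 has a closer copy still. Its coding sequence of 384 bases is 99.7% identical to that of KRTAP2-4, with a single substitution, the capital at the end of coding bases 214 to 333:
KRTAP2-3: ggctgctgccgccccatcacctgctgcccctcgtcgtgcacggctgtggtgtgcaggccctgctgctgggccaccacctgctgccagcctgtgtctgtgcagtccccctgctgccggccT
KRTAP2-4: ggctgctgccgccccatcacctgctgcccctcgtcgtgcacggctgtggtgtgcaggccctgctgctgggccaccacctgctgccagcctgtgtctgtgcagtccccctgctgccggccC

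Because METTL3 is the manipulated gene, GGACT was counted in the longest coding transcript of each member on the transcript's strand. KRT80 held 7 (1.81 per kb, a density above that of 86.0% of 19644 protein-coding genes), KRT81 and KRT86 3 each, KRT18 2, and KRT7, KRT8 and KRT19 1 each. KRTAP2-3 held none. The median over all genes was 0.939 per kb. The match nearest the end of the coding sequence is shown for each, with GGACT in capitals:
KRT7, coding: atgtggtggaGGACTtcaagaataa
KRT8, coding: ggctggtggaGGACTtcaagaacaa
KRT18, coding: aagatggcgaGGACTttaatcttgg
KRT19, coding: ttcaccagccGGACTgaagaattga
KRT80, 3' UTR: gcagcaggagGGACTtaagctagac
KRT81, coding: acctgaacatGGACTgcatcattgc
KRT86, 3' UTR: gcacgacctgGGACTctgcccatgt

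The contexts of the paralogues KRT7 and KRT8 differ at 4 of 25 bases. These are matches of letters, and no m6A was measured in these tables.

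Of the 8 members, 2 (KRT8 and KRTAP2-3) had a RefSeq promoter. That of KRTAP2-3, which rose in I-BET151 and fell in Molib and JQ1, is shown (GRCh38.p14, chr17:41060065-41060364, minus strand, 250 bases before the start site and 50 after). Searched on both strands were TATAAA, the letters of the TATA box, the AP-1 motif written TGANTCA, the TEAD motif written GGAATG, the E-box written CACGTG, and the SP1 motif written GGGCGG. The only match is TATAAA, in capitals, whose first base lies 28 bases before the start:
KRTAP2-3: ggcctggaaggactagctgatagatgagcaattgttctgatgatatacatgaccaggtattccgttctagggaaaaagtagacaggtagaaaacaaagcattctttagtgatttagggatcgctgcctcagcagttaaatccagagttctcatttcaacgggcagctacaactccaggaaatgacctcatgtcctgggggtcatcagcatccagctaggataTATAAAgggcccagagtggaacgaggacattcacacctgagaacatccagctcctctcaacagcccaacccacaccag

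In the KRT8 promoter, not shown, the only match is GGAATG, the TEAD letters, whose first base lies 17 bases after the start. Of 35116 promoters of this length, 11.5% hold TATAAA, 7.71% the AP-1 letters, 14.0% the TEAD letters, 7.26% the E-box and 45.0% the SP1 letters. A letter match is no measured site, and the lack of one in this window says nothing of the factor.

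Some libraries stand apart from their labels or from the rest. METTL3 was 312 and 311 FPKM (fragments scaled to transcript length and library total) in shM3_WT, 277 and 270.5 FPKM in shM3_CD, and 4.39 and 4.80 FPKM in shM3, against 20.1 and 23.8 FPKM in B5. HEXIM1, a gene widely used as a marker that rises under BET inhibitors, was 72.9 and 69.6 FPKM in Molib and 73.8 and 76.7 FPKM in JQ1, but 10.3 and 6.37 FPKM in the libraries labelled I-BET151, against 26.5 and 29.4 FPKM in DMSO. The I-BET151 libraries thus went the other way from Molib and JQ1 on this marker, and every I-BET151 result below rests on those libraries. In the CTRL table HEXIM1 was 46.4 and 55.0 FPKM in MW-JQ1, 85.3 and 77.0 FPKM in JQ1, and 63.4 and 52.0 FPKM in CTRL, so JQ1 was above CTRL and MW-JQ1, which is labelled as JQ1-treated too, overlapped CTRL. In the CTRL table, 90 to 398 of 4561 genes that reach 10 FPKM in all 16 libraries of the other tables are listed at 0 in each JQ1 and CTRL library, and none in MW-JQ1. In B5 replicate 2 one gene, PIDD1, is listed at 8234200 FPKM, while its other genes sum to 423171. Depth per library is unknown, since the tables hold no read counts.

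As background to the levels, MDA-MB-231 is a mesenchymal-like, hormone-receptor-negative line. Of 12 epithelial markers, luminal and basal, 5 (ESR1, PGR, FOXA1, KRT5 and CDH1) were under 1 FPKM in every library of the knockdown table. The same genes and KRT14 were under 1 FPKM throughout the DMSO table. VIM, the mesenchymal filament protein, ranged over 549 to 1627 FPKM in those 2 tables. Yet simple keratins were abundant: the 7 keratin members held 95.6% to 98.7% of the FPKM of 55 keratin genes in each library. KRT10, KRT15 and KRT17 were the other keratins that averaged 1 FPKM or more. In bulk RNA, fewer cells of a type and less RNA per cell cannot be told apart.

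In the DMSO table KRT8, KRT18 and KRT19 rose under JQ1 and under Molib, and the other 5 members, the simple keratin KRT7 among them, fell. KRT19 rose 4.12-fold and KRT8 2.05-fold under JQ1, while KRT7, KRT80, KRT81, KRT86 and KRTAP2-3 were 2.89- to 9.99-fold lower under JQ1. The largest of these folds, that of KRTAP2-3, rests on JQ1 values of 0.138 and 0.235 FPKM. All 8 members passed the test (limma on log2(FPKM + 1), Benjamini-Hochberg adjusted p under 0.05) in JQ1 against DMSO, 3 higher and 5 lower, where 35.1% of all 14936 genes tested passed. In Molib against DMSO all 8 passed too, 3 higher and 5 lower, where 35.3% of all genes passed. In the libraries labelled I-BET151, 6 passed against DMSO, 3 higher and 3 lower, where 28.0% of all genes passed. The median log2 difference of the members was 0.04 in I-BET151, -1.20 in Molib and -1.38 in JQ1, beside -0.00, -0.03 and -0.04 over all genes. These 3 comparisons share the same DMSO libraries. The calls over all genes depended on single libraries. JQ1 against DMSO had 5238 calls, with 3047 without DMSO replicate 1, 2891 without DMSO replicate 2, and 2854 and 2997 without either JQ1 library. Molib against DMSO had 5273 calls, with 3077 and 3056 without DMSO replicate 1 or 2, and 3250 and 3170 without Molib replicate 1 or 2. I-BET151 against DMSO had 4181 calls, with 2001 and 1940 without DMSO replicate 1 or 2.

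**Figure D1:**
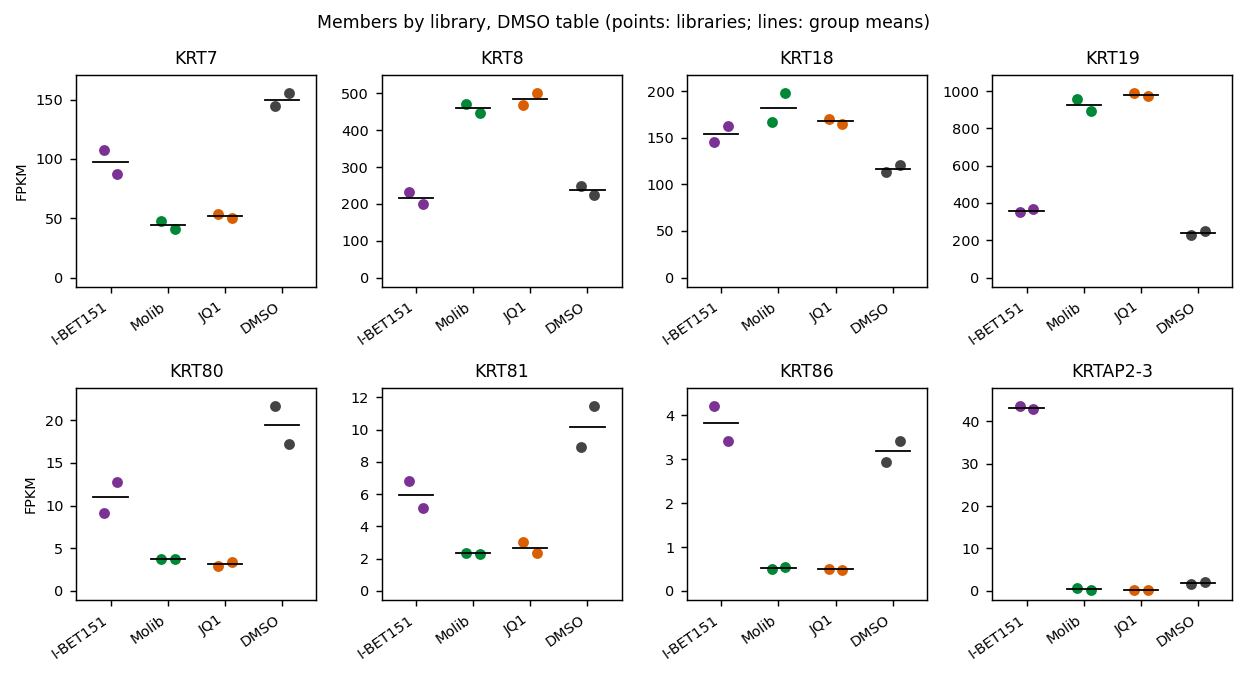
FPKM of the 8 members in each library of the DMSO table (points) with group means (lines), on linear axes that include 0. Molib and JQ1 lie above DMSO for KRT8, KRT18 and KRT19 and below it for the other 5 members, while I-BET151 alone is high for KRTAP2-3, at 43.5 and 42.9 FPKM.

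Type I keratins come first. KRT19, the smallest keratin and a partner of KRT7 and KRT8, had 351 and 368 FPKM in I-BET151, 958 and 895 in Molib, 989.9 and 973 in JQ1, and 228 and 248 in DMSO. No treated library overlapped DMSO. The fold of the mean was 1.51 in I-BET151 (log2 difference 0.59, 95% interval 0.38 to 0.81, adjusted p = 0.00368), 3.89 in Molib (1.96, 1.75 to 2.17, adjusted p = 2.65e-05) and 4.12 in JQ1 (2.04, 1.83 to 2.25, adjusted p = 2.12e-05). KRT18, the partner of KRT8, had 145 and 163 FPKM in I-BET151, 167 and 198 in Molib, 170.0 and 165 in JQ1, and 113 and 121 in DMSO. It rose 1.32-fold in I-BET151 (adjusted p = 0.0388), 1.56-fold in Molib (adjusted p = 0.00517) and 1.44-fold in JQ1 (adjusted p = 0.012). The I-BET151 call for KRT18 was lost without any 1 of DMSO replicate 1, DMSO replicate 2, JQ1 library a, JQ1 library b or I-BET151 replicate 2 (adjusted p 0.0695 to 0.177). The JQ1 call was lost without DMSO replicate 1 or either JQ1 library (adjusted p 0.0567 to 0.0752).

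Among the type II keratins, KRT8 had 233 and 199.7 FPKM in I-BET151, 470.2 and 448 in Molib, 468 and 501 in JQ1, and 248 and 225 in DMSO. Molib and JQ1 were above every DMSO library, and I-BET151 overlapped DMSO. KRT8 rose 1.94-fold in Molib (log2 difference 0.96, 0.70 to 1.21, adjusted p = 0.000776) and 2.05-fold in JQ1 (1.03, 0.78 to 1.29, adjusted p = 0.000592). In I-BET151 its log2 difference was -0.13 (-0.38 to 0.12, adjusted p = 0.405). KRT7 ran the other way, with 108 and 87.3 FPKM in I-BET151, 47.9 and 41.1 in Molib, 53.3 and 50.5 in JQ1, and 144 and 156 in DMSO. All treated libraries were below DMSO. KRT7 fell 1.54-fold in I-BET151 (adjusted p = 0.0128, lost without either DMSO library at 0.0518 and 0.0797), 3.37-fold in Molib (adjusted p = 0.000157) and 2.89-fold in JQ1 (adjusted p = 0.000277). KRT80 had 9.17 and 12.7 FPKM in I-BET151, 3.68 and 3.77 in Molib, 2.93 and 3.44 in JQ1, and 21.6 and 17.2 in DMSO, again with no overlap. It fell 1.77-fold in I-BET151 (adjusted p = 0.0173), 5.21-fold in Molib (adjusted p = 0.000243) and 6.09-fold in JQ1 (adjusted p = 0.000188). Its I-BET151 call was lost without DMSO replicate 1 (adjusted p = 0.103) or I-BET151 replicate 1 (adjusted p = 0.0512).

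The hair-type genes were lower in Molib and JQ1 and differed from one another in I-BET151. KRT81 had 6.81 and 5.11 FPKM in I-BET151, 2.37 and 2.28 in Molib, 3.01 and 2.35 in JQ1, and 8.91 and 11.4 in DMSO. It fell 1.71-fold in I-BET151 (adjusted p = 0.0271), 4.38-fold in Molib (adjusted p = 0.000511) and 3.80-fold in JQ1 (adjusted p = 0.000775). Its I-BET151 call was lost without DMSO replicate 2 (adjusted p = 0.150) or I-BET151 replicate 2 (adjusted p = 0.102). It was also lost when KRT81 was summed with KRT86, a near-identical gene with which it may share reads: the log2 difference of the sum was -0.42 in I-BET151 (adjusted p = 0.104), -1.89 in Molib (adjusted p = 0.000289) and -1.78 in JQ1 (adjusted p = 0.00037). KRT86 had 4.21 and 3.42 FPKM in I-BET151, 0.497 and 0.539 in Molib, 0.501 and 0.483 in JQ1, and 2.94 and 3.42 in DMSO. It fell 6.14-fold in Molib (adjusted p = 0.000419) and 6.46-fold in JQ1 (adjusted p = 0.000413), and in I-BET151 its log2 difference was 0.20 (-0.13 to 0.54, adjusted p = 0.330). KRTAP2-3, the cross-linking partner of hair keratins, had 43.5 and 42.9 FPKM in I-BET151, 0.667 and 0.325 in Molib, 0.138 and 0.235 in JQ1, and 1.73 and 2.00 in DMSO. It rose 23.2-fold in I-BET151 (log2 difference 3.95, 3.60 to 4.30, adjusted p = 1.99e-05) and fell 3.75-fold in Molib (adjusted p = 0.00305) and 9.99-fold in JQ1 (adjusted p = 0.000966). Folds here are ratios of mean FPKM, whereas the log2 scale adds 1 to each value and so shrinks changes of genes near or under 1 FPKM. The folds of KRT86 and KRTAP2-3 in Molib and JQ1 rest on values under 1 FPKM at unknown depth, so their size is uncertain.

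Compared with each other at 0.5 µM for 3 days, Molib and JQ1 differed in none of the members by limma's adjusted p. No gene of 14936 passed (0%), with 1227 genes and 0 members at an unadjusted p under 0.05. The intervals of the Molib minus JQ1 log2 difference were -0.30 to 0.13 for KRT19, -0.33 to 0.18 for KRT8, -0.53 to 0.08 for KRT7 and -0.24 to 0.59 for KRT80. For KRTAP2-3 the difference was 0.33 (-0.02 to 0.68), with both Molib libraries above both JQ1 libraries. I-BET151 differed from both. Against JQ1, 7 members passed, 5 higher and 2 lower, where 44.6% of all genes passed. Against Molib, 7 passed as well, 5 higher and 2 lower, where 43.5% of all genes passed. KRT19 was 2.73-fold lower in I-BET151 than in JQ1 (log2 difference -1.45, -1.66 to -1.24) and KRT8 2.24-fold lower (-1.16, -1.42 to -0.91), while KRTAP2-3 was higher by 5.22 on the log2 scale (4.87 to 5.57) and KRT86 by 1.69 (1.35 to 2.02). KRT18 was the exception, at -0.12 (-0.39 to 0.14, adjusted p = 0.410) against JQ1 and -0.24 (-0.51 to 0.03, adjusted p = 0.129) against Molib.

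The balance of type II to type I keratin differed between the groups of the DMSO table. The summed FPKM of KRT7, KRT8, KRT80, KRT81 and KRT86 over that of KRT18 and KRT19 was 0.727 and 0.580 in I-BET151, 0.467 and 0.453 in Molib, 0.455 and 0.490 in JQ1, and 1.25 and 1.12 in DMSO. Among these members, every treated library of that table had more type I than type II keratin RNA, and both DMSO libraries had more type II. Other expressed keratins, KRT10, KRT15 and KRT17, all type I, were not in the sums, and adding them would lower the ratios. In the CTRL table the ratio was 0.789 and 0.909 in MW-JQ1, 1.18 and 1.04 in JQ1, and 0.968 and 1.08 in CTRL, so JQ1 overlapped CTRL there and was not lower. KRT7 made up 29.9% and 28.3% of the type II sum in I-BET151, 9.13% and 8.29% in Molib, 10.1% and 9.05% in JQ1, and 33.9% and 37.7% in DMSO. These are descriptions without a test.

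**Figure D2:**
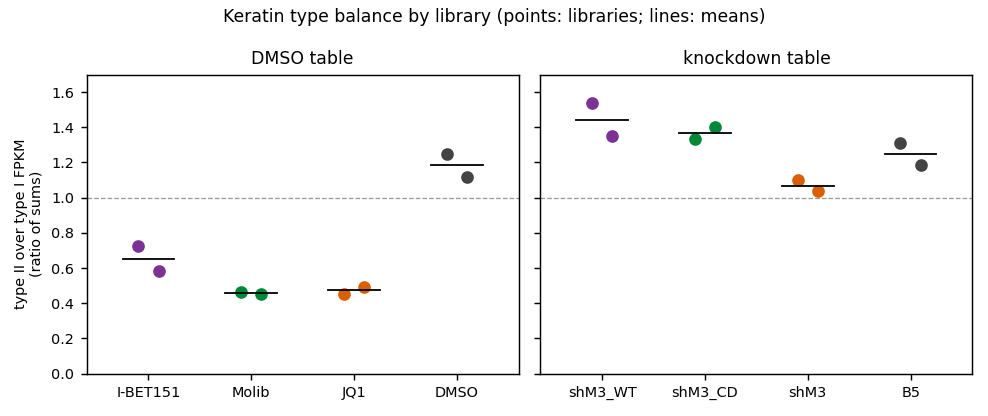
Ratio of summed type II to summed type I keratin FPKM in each library (points) with group means (lines) of the DMSO table and the knockdown table, on a linear axis from 0 with a dashed line at 1. Only the keratin members are summed, without the type I keratins KRT10, KRT15 and KRT17, which would lower the ratios. In shM3 replicate 2, at 1.04, the sums are 635 FPKM of type II and 612 FPKM of type I. KRT10, KRT15 and KRT17 have 13.7, 4.63 and 8.42 FPKM there, so its side of the line depends on the genes summed. The treated libraries of the DMSO table lie between 0.453 and 0.727 and every other library of the 2 tables shown lies above 1.

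In the knockdown table, shM3 cells had more KRT19, KRT7 and KRTAP2-3 and less KRT80, KRT81 and KRT86 than B5 cells. In shM3 against B5, 6 of 8 members passed, 3 higher and 3 lower, where 37.8% of all 14638 genes tested passed. Their median log2 difference was 0.02, beside -0.00 over all genes. Of these 6, KRT19, KRT80, KRT81 and KRT86 changed in the same direction as in JQ1 against DMSO, and KRT7 and KRTAP2-3, both lower in JQ1 against DMSO, were higher in shM3.

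**Figure D3:**
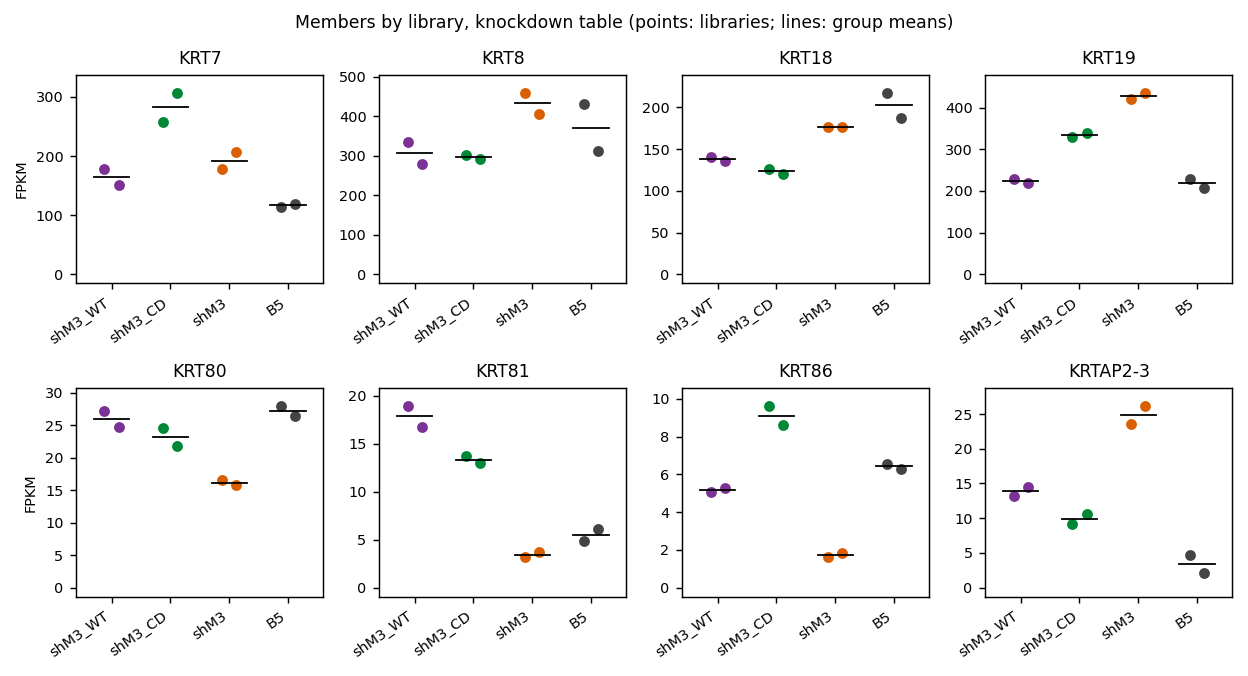
FPKM of the 8 members in each library of the knockdown table (points) with group means (lines), on linear axes that include 0. For KRT19 and KRT80 shM3_WT lies beside B5, whereas KRT81 is higher in both add-back groups, between 13.0 and 18.9 FPKM, than in shM3 or B5.

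KRT19 had 228 and 218 FPKM in shM3_WT, 328 and 339 in shM3_CD, 422 and 436 in shM3, and 228 and 208 in B5. The shM3 libraries were above all others, shM3_CD came next, and shM3_WT overlapped B5. KRT19 rose 1.97-fold in shM3 over B5 (log2 difference 0.97, 0.80 to 1.15, adjusted p = 0.000167). It fell 1.92-fold in shM3_WT against shM3 (-0.94, -1.12 to -0.77, adjusted p = 0.000164). Against B5, shM3_WT differed by 0.03 (-0.14 to 0.21, adjusted p = 0.769), and shM3_CD was still 1.53-fold higher (adjusted p = 0.0016). KRT80 had 27.2 and 24.8 FPKM in shM3_WT, 24.6 and 21.8 in shM3_CD, 16.5 and 15.8 in shM3, and 27.9 and 26.4 in B5. The shM3 libraries were the lowest. KRT80 fell 1.68-fold in shM3 (log2 difference -0.72, -0.94 to -0.49, adjusted p = 0.00145) and rose 1.61-fold in shM3_WT against shM3 (0.65, 0.43 to 0.88, adjusted p = 0.00198).

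KRT7 had 178 and 152 FPKM in shM3_WT, 258 and 307 in shM3_CD, 178 and 207 in shM3, and 114 and 119 in B5. All 3 groups with shM3 were above B5, and shM3_CD was the highest. KRT7 rose 1.65-fold in shM3 (adjusted p = 0.00461), 2.42-fold in shM3_CD over B5 (adjusted p = 0.000781) and 1.41-fold in shM3_WT over B5 (adjusted p = 0.0247). The last call was lost without B5 replicate 1, B5 replicate 2 or shM3_WT replicate 1 (adjusted p 0.0714 to 0.121). KRT8 had 335 and 281 FPKM in shM3_WT, 301 and 293 in shM3_CD, 459.9 and 406 in shM3, and 430.1 and 312 in B5. The B5 libraries lay far apart and overlapped shM3, and shM3 minus B5 was 0.24 (-0.14 to 0.62, adjusted p = 0.281, and 0.0388 without B5 replicate 1). Without B5 replicate 2, KRT8 passed as lower in shM3_WT (adjusted p = 0.0471) and in shM3_CD (adjusted p = 0.036) than in B5, and without B5 replicate 1 or 2 as lower in shM3_CD than in shM3 (0.0764 with all libraries, 0.029 and 0.0288 without). KRT18 had 140.1 and 136 FPKM in shM3_WT, 127 and 120.0 in shM3_CD, 177 and 176 in shM3, and 218 and 187 in B5. It was lower in shM3_WT than in B5 (log2 difference -0.54, adjusted p = 0.00435) and in shM3_CD than in B5 (-0.71, adjusted p = 0.00167). For shM3 minus B5 it was -0.19 (-0.40 to 0.01, adjusted p = 0.122, and 0.0264 without B5 replicate 2).

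The hair-type genes had the widest spread. KRT81 had 18.9 and 16.7 FPKM in shM3_WT, 13.7 and 13.0 in shM3_CD, 3.16 and 3.73 in shM3, and 4.81 and 6.06 in B5. The add-back groups were above both others. KRT81 fell 1.58-fold in shM3 (adjusted p = 0.0186, and 0.0793 or 0.0974 without B5 replicate 2 or shM3 replicate 1), and rose 5.17-fold in shM3_WT (adjusted p = 7.51e-05) and 3.87-fold in shM3_CD (adjusted p = 0.000905) against shM3. KRT86 had 5.07 and 5.30 FPKM in shM3_WT, 9.63 and 8.62 in shM3_CD, 1.60 and 1.84 in shM3, and 6.55 and 6.29 in B5. It fell 3.73-fold in shM3 (log2 difference -1.45, -1.71 to -1.19, adjusted p = 0.000156) and rose 3.01-fold in shM3_WT (adjusted p = 0.000304) and 5.29-fold in shM3_CD (adjusted p = 0.000317) against shM3. KRTAP2-3 had 13.2 and 14.5 FPKM in shM3_WT, 9.13 and 10.6 in shM3_CD, 23.6 and 26.2 in shM3, and 4.65 and 2.08 in B5. The shM3 libraries were the highest, and both add-back groups lay between shM3 and B5.

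KRT81 and KRT86 did not keep 1 ratio. KRT81 made up 78.9% and 76.0% of the summed FPKM of the pair in shM3_WT, 58.7% and 60.1% in shM3_CD, 66.4% and 66.9% in shM3, and 42.3% and 49.1% in B5. Taken as a sum, the pair did not separate the add-back groups (shM3_WT minus shM3_CD 0.03, adjusted p = 0.845), although KRT86 alone was 1.76-fold lower in shM3_WT (log2 difference -0.71, adjusted p = 0.00494). In shM3_WT minus B5 the sum was 0.90 (adjusted p = 0.00132), whereas KRT86 alone was -0.26 (adjusted p = 0.109). In shM3 minus B5 the sum fell like each gene, by 1.06 on the log2 scale (adjusted p = 0.000448).

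In shM3_WT against shM3, 7 members passed, 3 higher and 4 lower, where 39.4% of all genes passed. Of the genes that passed, 42.5% were higher as deposited and 52.8% after scaling by TMM factors. Under TMM factors the falls of KRT8, KRT18 and KRTAP2-3 no longer passed (adjusted p = 0.112, 0.0767 and 0.0705). These 3 falls were 1.41-, 1.28- and 1.80-fold as deposited (adjusted p = 0.0467, 0.0170 and 0.0443), and each was lost without any 1 of the shM3 or shM3_WT libraries (adjusted p 0.0561 to 0.209), the falls of KRT8 and KRTAP2-3 also without either shM3_CD library. In shM3_CD against shM3, 7 members passed, 4 higher and 3 lower, where 11.4% of all genes passed. Of these, KRT81 and KRT86 still passed with each library left out in turn. KRT7, KRT18, KRT19, KRT80 and KRTAP2-3 were lost without any 1 of the 4 libraries compared (adjusted p 0.0509 to 0.170), where the count of all genes that passed was at its lowest 500 of 1670.

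The direct comparison of the add-back groups gave 3 members, KRT7, KRT19 and KRT86, all lower in shM3_WT than in shM3_CD, where 25.9% of all genes passed. The log2 differences were -0.77 (-1.07 to -0.48) for KRT7, -0.58 (-0.76 to -0.41) for KRT19 and -0.71 (-0.97 to -0.45) for KRT86. Of all genes that passed, 39.5% were higher as deposited and 56.8% under TMM factors. KRT81 was 0.39 (0.08 to 0.70, adjusted p = 0.0698), passing under TMM factors (adjusted p = 0.0309) and without B5 replicate 1 or 2 (0.0468 and 0.0471). KRTAP2-3 was 0.45 (-0.15 to 1.06, adjusted p = 0.238), and 0.0309 or 0.0300 without B5 replicate 1 or 2. Against B5, 4 members passed in shM3_WT, 3 higher and 1 lower, where 30.0% of all genes passed. Of all genes that passed there, 39.4% were higher as deposited and 54.3% under TMM factors. In shM3_CD 6 passed against B5, 5 higher and 1 lower, where 29.9% of all genes passed. KRTAP2-3 was 4.12-fold higher in shM3_WT (adjusted p = 0.00271) and 2.93-fold higher in shM3_CD (adjusted p = 0.00814) than in B5. KRT86 was 1.42-fold higher in shM3_CD than in B5 (adjusted p = 0.0212), which did not pass once any of these 4 libraries was left out (0.0511 to 0.122).

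**Figure D4:**
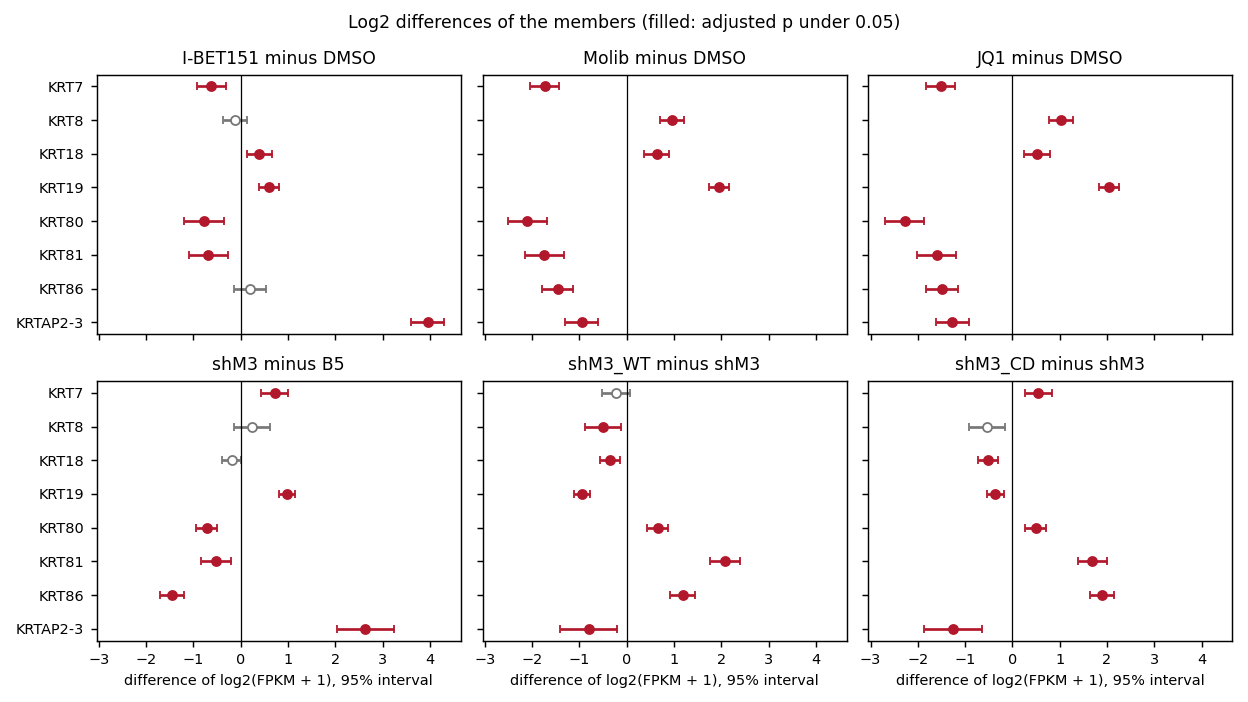
Differences of log2(FPKM + 1) of the 8 members with 95% intervals in 6 comparisons, filled where the adjusted p was under 0.05. KRT19 lies right of 0 in I-BET151, Molib, JQ1 and shM3 and left of 0 in both add-back groups, and KRT80 is its mirror image.

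KRTAP2-4 followed KRTAP2-3 at a lower level, as the near-identity of the pair allows. It had 5.13 and 4.03 FPKM in I-BET151, 0.0223 and 0 in Molib, 0 and 0.0711 in JQ1, and 0.209 and 0.127 in DMSO. In the knockdown table it had 1.12 and 1.35 FPKM in shM3_WT, 1.32 and 0.904 in shM3_CD, 2.79 and 2.51 in shM3, and 0.385 and 0.435 in B5. Within the coding sequence, a read that misses the single differing base cannot tell the 2 rows apart. The rest of the 875-base KRTAP2-3 transcript was not compared, so how far the rows share reads is unknown. The coding sequences of KRTAP2-1 and KRTAP2-2 are also 99.5% and 98.2% identical to that of KRTAP2-3. KRTAP2-1 had 1.66 and 0.756 FPKM in I-BET151, against 0.0732 and 0.0556 in DMSO. KRTAP2-2 had 1.77 and 0.832 FPKM in I-BET151, against 0.0845 and 0.0589 in DMSO. The 18 neighbouring KRTAP1, KRTAP3 and KRTAP4 genes did not reach the filter of 1 FPKM in 2 libraries of either table.

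In the CTRL table the JQ1 and CTRL libraries list many expressed genes at 0, so values are given by library. Their top gene was RN7SL1, at 50061 and 42965 FPKM in JQ1 and 37435 and 52947 FPKM in CTRL. In MW-JQ1 the top genes were EEF1A1 (7603 FPKM) and S100A6 (8153 FPKM). Pearson's r of log2(FPKM + 1) within a group was 0.986 in MW-JQ1, 0.777 in JQ1 and 0.746 in CTRL. What sets MW-JQ1 apart below cannot be told apart from these library differences. KRT19 had 772 and 777 FPKM in MW-JQ1, 397 and 466 in JQ1, and 261 and 191 in CTRL. KRT8 had 511 and 533 FPKM in MW-JQ1, 666 and 543 in JQ1, and 206 and 226 in CTRL. For both genes the JQ1 libraries were above the CTRL libraries, as JQ1 was above DMSO. KRT18 had 270.4 and 186 FPKM in MW-JQ1, 228 and 176 in JQ1, and 98.3 and 141 in CTRL, and KRT7 had 164 and 174 in MW-JQ1, 64.9 and 116 in JQ1, and 136 and 107 in CTRL. KRT80 had 39.6 and 47.4 FPKM in MW-JQ1, 0.890 and 3.05 in JQ1, and 5.98 and 15.7 in CTRL. The hair-type genes were high in MW-JQ1: KRT81 had 64.2 and 72.9 FPKM there and is listed at 0 in all JQ1 and CTRL libraries. KRT86 had 43.7 and 47.3 FPKM in MW-JQ1, 5.50 and 6.27 in JQ1, and 0 and 9.08 in CTRL, and KRTAP2-3 had 31.9 and 30.0 in MW-JQ1, 0 and 0.319 in JQ1, and 0 and 3.27 in CTRL.

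**Figure D5:**
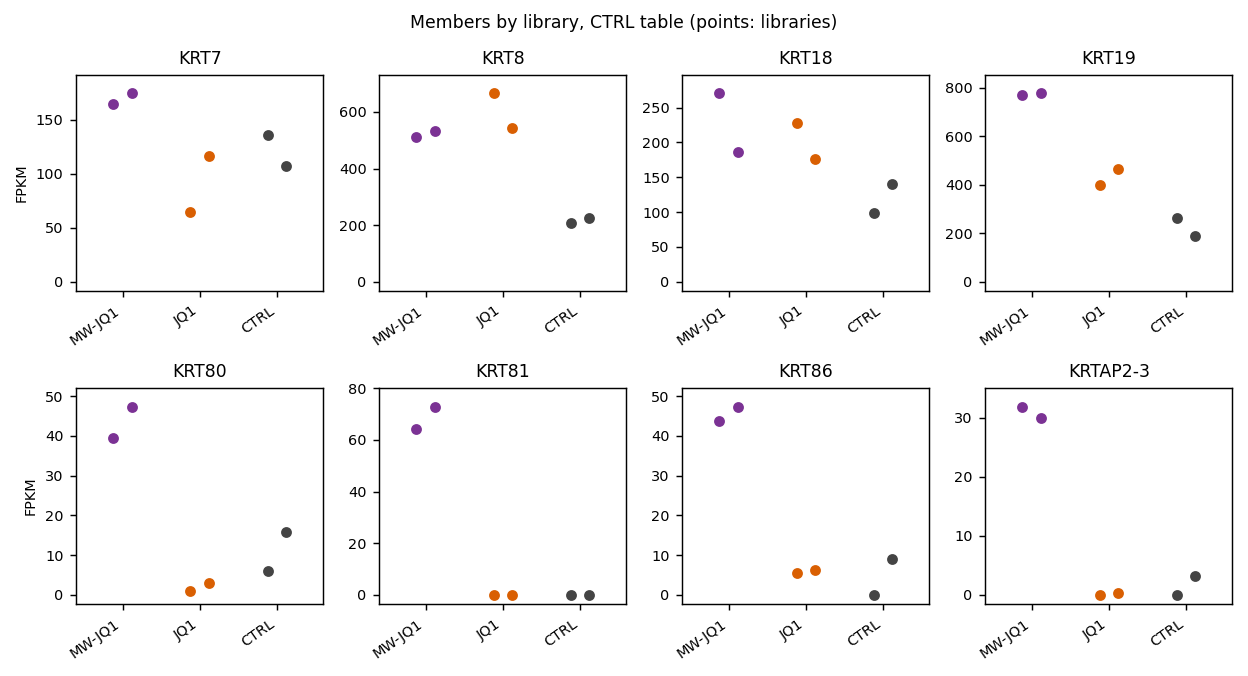
FPKM of the 8 members in each library of the CTRL table (points), on linear axes that include 0. KRT80, KRT81, KRT86 and KRTAP2-3 are high in both MW-JQ1 libraries, and KRT81 is listed at 0 in the 4 others.

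None of the members passed limma's test in JQ1 against CTRL, and neither did any of the 13261 genes tested (0%), with 2048 genes and 3 members at an unadjusted p under 0.05. At a pseudocount of 0.1, 6 genes passed, and without CTRL replicate 2, 492 genes passed. The log2 difference was 1.47 for KRT8 (1.03 to 1.92, adjusted p = 0.0805) and 0.95 for KRT19 (0.40 to 1.49, adjusted p = 0.145). The authors' deposited table is named for MW against JQ1, while its log2 fold change column names no groups. In that column KRT8 has 1.21 (adjusted p = 5.51e-23), KRT19 1.09 (adjusted p = 2.14e-12) and KRT18 0.90 (adjusted p = 0.0293). The other 5 members did not pass there, with KRT7 at -0.30, KRT80 -0.92, KRT81 -0.19, KRT86 0.04 and KRTAP2-3 -0.34 (adjusted p 0.133 to 0.984). In sign, that column matched JQ1 minus CTRL for 7 of 7 members, with KRT81 left out, and MW-JQ1 minus JQ1 for 3 of 8. By limma, 3 members passed in MW-JQ1 against JQ1, KRT80, KRT81 and KRTAP2-3, all higher, where 15.2% of all genes passed. KRT81 and KRTAP2-3 reached the filter of 1 FPKM in 2 libraries only through MW-JQ1, so they had to differ and nothing is read from their calls. When KRT81 was summed with KRT86, the log2 difference of the sum was 4.06 and did not pass (adjusted p = 0.0876). Over all genes the median of that comparison was itself 0.75, so it is not centred. Its 2010 calls over all genes fell to 50 without MW-JQ1 replicate 1 and to 48 without MW-JQ1 replicate 2, and were 3135 and 3119 without CTRL replicate 1 or 2. With CTRL replicate 1 or 2 left out, 5 members passed, KRT19 and KRT86 joining (adjusted p 0.00739 to 0.027), and with either MW-JQ1 library left out none passed, KRT81 then failing the filter and so not being tested. Without JQ1 replicate 2, KRT7 passed too (adjusted p = 0.0452), and KRTAP2-3 was lost without any JQ1 or MW-JQ1 library (adjusted p 0.068 to 0.574). METTL3 was 212 and 234 FPKM in MW-JQ1, 11.8 and 0 in JQ1, and 31.2 and 1.18 in CTRL.

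Other filament and adhesion genes were counted from lists chosen by role, and p-values here are limma's, adjusted over all genes. Of all genes tested, 37.8% passed in shM3 against B5 (17.9% higher and 19.9% lower), 28.0% in I-BET151 (13.9% higher and 14.1% lower), 35.3% in Molib (14.8% higher and 20.5% lower) and 35.1% in JQ1 (14.5% higher and 20.6% lower), all 3 against DMSO. Each list count below stands beside these shares, and nothing particular to a list is read from it. Of 18 desmosome and plakin genes, 11 were tested in shM3 against B5, of which 5 were higher and 2 lower. Of 12 tested, 3 were lower in I-BET151, 1 was higher and 6 lower in Molib, and 1 was higher and 4 lower in JQ1, all against DMSO. Plectin (PLEC), which ties keratins to hemidesmosomes and other filaments, averaged 453 ± 14.6 FPKM in Molib (adjusted p = 7.67e-05) and 404 ± 3.76 FPKM in JQ1 (adjusted p = 0.000119), against 135 ± 1.45 FPKM in DMSO (SD, n = 2 each, here and below). Periplakin (PPL), a desmosomal linker, fell to 1.52 ± 0.112 FPKM in shM3, against 9.0 ± 0.308 FPKM in B5 (adjusted p = 7.58e-05). Plakoglobin (JUP), a desmosome plaque protein, rose to 58.8 ± 5.68 FPKM in shM3, against 39.7 ± 3.85 FPKM in B5 (adjusted p = 0.00539).

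All 7 hemidesmosome genes, which anchor keratins to the basement membrane, were tested. In shM3 against B5, 2 were higher and 4 lower. Against DMSO, 2 were higher and 1 lower in I-BET151, 5 were lower in Molib and 4 in JQ1. COL17A1, a transmembrane collagen of the hemidesmosome, fell to 0.670 ± 0.0578 FPKM in Molib (adjusted p = 0.000214) and 0.578 ± 0.0181 FPKM in JQ1 (adjusted p = 0.000184), against 4.19 ± 0.486 FPKM in DMSO.

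Of 14 other intermediate filament and lamin genes, 8 were tested in shM3 against B5, and all 8 were lower, where 19.9% of all genes were. Against DMSO, 10 were tested, 6 lower in I-BET151, 3 higher and 4 lower in Molib, and 3 higher and 4 lower in JQ1. LMNB1, a lamin of the nuclear envelope, fell to 11.3 ± 0.787 FPKM in shM3, against 49.1 ± 4.64 FPKM in B5 (adjusted p = 0.000556). It also fell to 10.7 ± 1.67 FPKM in Molib (adjusted p = 7.67e-05) and 12.4 ± 1.37 FPKM in JQ1 (adjusted p = 0.000118), against 51.9 ± 2.29 FPKM in DMSO. NEFL, the light neurofilament, rose to 12.3 ± 0.0135 FPKM in Molib (adjusted p = 0.000175) and 14.4 ± 0.122 FPKM in JQ1 (adjusted p = 0.000119), against 3.92 ± 0.235 FPKM in DMSO. Of the epithelial regulators, 9 of 17 were tested against DMSO, of which 1 was higher in I-BET151, 3 were higher and 2 lower in Molib, and 3 were higher and 4 lower in JQ1. In shM3 against B5, 8 were tested, 3 higher and 2 lower. KLF5, a zinc finger factor of epithelia, rose to 16.5 ± 0.114 FPKM in shM3, against 9.49 ± 0.152 FPKM in B5 (adjusted p = 0.000645), and to 14.4 ± 1.24 FPKM in JQ1, against 6.44 ± 0.307 FPKM in DMSO (adjusted p = 0.000608). TFAP2C, an AP-2 factor of luminal cells, fell to 4.11 ± 0.411 FPKM in shM3, against 10.3 ± 0.946 FPKM in B5 (adjusted p = 0.000664), and to 2.60 ± 0.178 FPKM in JQ1, against 10.4 ± 0.665 FPKM in DMSO (adjusted p = 0.000157).

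Among the other keratins, KRT17, of basal and stressed epithelia, was 1.12 and 1.79 FPKM in shM3_WT, 5.62 and 6.88 in shM3_CD, 10.1 and 8.42 in shM3, and 9.80 and 10.8 in B5. It fell in shM3_WT against shM3 (adjusted p = 0.000188). In the DMSO table it rose to 3.13 and 2.59 FPKM in I-BET151, against 0.817 and 0.319 FPKM in DMSO (adjusted p = 0.00278). KRT15 rose in I-BET151 (11.7 and 11.1 FPKM, against 7.00 and 5.42 in DMSO, adjusted p = 0.00527) and in Molib (9.74 and 9.65 FPKM, adjusted p = 0.0134). Of the keratin-binding and cornified envelope list, 7 genes were tested in shM3 against B5, with 1 higher and 1 lower. Of 6 tested against DMSO, 1 was higher and 3 lower in I-BET151, 1 was higher and 1 lower in Molib, and 1 was higher and 2 lower in JQ1. Stratifin (SFN), an adapter protein that binds keratins, fell to 20.8 ± 3.47 FPKM in I-BET151 (adjusted p = 0.00719), 10.3 ± 0.973 FPKM in Molib (adjusted p = 0.000262) and 9.69 ± 0.653 FPKM in JQ1 (adjusted p = 0.00024), against 38.4 ± 5.48 FPKM in DMSO.

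Markers of other cell types moved with some groups. The summed FPKM of 6 haematopoietic markers was 5.33 and 6.19 in I-BET151, 1.21 and 1.17 in Molib, 0.664 and 1.19 in JQ1, and 5.21 and 4.92 in DMSO, with PTPRC, CD3E, LYZ and HBB under 1 FPKM in all of them. In the knockdown table it was 5.73 and 5.01 in shM3_WT, 6.74 and 6.49 in shM3_CD, 5.13 and 5.04 in shM3, and 21.7 and 10.9 in B5, which was higher than every other group.

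The sum of 6 mesenchymal markers was 1157 and 1320.0 in I-BET151, 1968 and 1959 in Molib, 1762 and 1999 in JQ1, and 1884 and 1903 in DMSO. The sums mostly follow VIM, which had 650 and 818 FPKM in I-BET151, against 1458 and 1462 in DMSO. Of 5 tested against DMSO, 2 were higher and 2 lower in I-BET151. In Molib 1 was higher and 3 lower, and so it was in JQ1. The median log2 differences of the 5 were -0.07, -0.55 and -0.53 in I-BET151, Molib and JQ1. In the knockdown table the sum was 1799 and 1669 in shM3_WT, 1047 and 922 in shM3_CD, 986 and 975 in shM3, and 1641 and 1596 in B5. All 5 that were tested were lower in shM3 and in shM3_CD against B5, where 19.9% and 15.2% of all genes were lower. In shM3_WT against B5, 2 of them were higher and 2 lower, where 11.8% of all genes were higher and 18.2% lower.

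The sum of the 12 epithelial markers was 39.6 and 38.9 in shM3_WT, 63.1 and 61.3 in shM3_CD, 70.8 and 67.2 in shM3, and 62.8 and 64.7 in B5. The shM3_WT libraries were thus the lowest, and 4 of 6 tested markers were lower in shM3_WT against shM3, against shM3_CD and against B5, with none higher. Of all genes, 22.7%, 15.7% and 18.2% were lower in these comparisons. Their all-gene balance of higher and lower calls shifted under TMM factors, and the marker counts were not repeated under them. In shM3 against B5, 1 of the 6 markers was higher and 1 lower, with a median log2 difference of -0.11, of the other sign than the difference of the sums. In the DMSO table the sum was 42.2 and 44.2 in I-BET151, 34.9 and 37.7 in Molib, 37.2 and 32.8 in JQ1, and 37.6 and 35.8 in DMSO. Of 6 tested there, 2 were higher in I-BET151, 3 were lower in Molib and 3 were lower in JQ1.

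The sum of 6 fibroblast and endothelial markers was 5.04 and 5.11 in shM3_WT, 9.38 and 9.47 in shM3_CD, 10.7 and 10.8 in shM3, and 13.2 and 15.9 in B5. Of 4 tested, 4 were lower in shM3_WT, 2 in shM3_CD and 3 in shM3, all against B5, where 18.2%, 15.2% and 19.9% of all genes were. In the DMSO table it was 3.93 and 5.18 in I-BET151, 2.47 and 2.31 in Molib, 2.40 and 2.08 in JQ1, and 4.99 and 6.16 in DMSO. Of 3 tested, 2 were lower in Molib and 2 in JQ1 against DMSO, and none passed in I-BET151. DCN and VWF were under 1 FPKM in every library of both tables. The part of these 4 marker lists in the results was not tested.

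Finally, the members were compared with each other and with all genes over the 8 group means of the knockdown and DMSO tables, each centred on its table. As a description over points that share a table, KRT19 and KRT80 ran opposite (r = -0.98), KRT8 ran with KRT19 (r = 0.87) and against KRT86 (r = -0.90), and KRT81 ran with KRT86 (r = 0.77). Of 8699 genes averaging 5 FPKM or more in both tables, the most like KRT19 was WDR47 (r = 0.997), the most like KRT80 RBBP4 (r = 0.991), the most like KRT8 AC015912.1 (r = 0.991) and then DKK1 (r = 0.983), and the most like KRT7 ZFP64 (r = 0.967). For KRT18 it was IER5 (r = 0.972), for KRT81 SNRPG (r = 0.986), for KRT86 COL7A1 (r = 0.979) and for KRTAP2-3 CDC26 (r = 0.986). These genes were picked as the top of 8699 values of r over only 8 points. High values come with such a pick, and no shared regulation is read from them.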

How the data were processed

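RNA of 22 MDA-MB-231 libraries was analysed. The tools named in the submitters' processing notes, without role or order, are HISAT2 2.1.0, Cufflinks 2.2.1 and CASAVA 1.4, and the build is hg38. The authors deposited FPKM values in 3 tables. FPKM is named in 1 table only, and the unit of the others was inferred from their values. The CTRL table also holds log2 fold changes, p-values and adjusted p-values that the authors deposited. These columns do not name the groups compared, although the table itself is named for MW against JQ1. All per-sample columns were used (0 left out). The JQ1 columns of the DMSO table bear the same names as those of the CTRL table and were assigned to their group by elimination. Depth per library is unknown.

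From FPKM, log2(FPKM + 1) was tested with limma 3.58.1 (R 4.3.3; lmFit, contrasts, eBayes with trend), all groups of a table in 1 fit, over genes that reached 1 FPKM in 2 or more libraries. P-values were Benjamini-Hochberg adjusted over all genes tested, with a threshold of 0.05, and intervals are 95% intervals. Folds are ratios of mean FPKM. The fit was tested on simulated data. Members and gene lists were chosen with earlier results of these data known. Every member is reported, and from each list at most 4 genes are named, those with the smallest adjusted p in the comparisons with B5, shM3 or DMSO. Likeness is Pearson's r over group means. Same-numbered libraries did not deviate together (r -0.12 to 0.04 over 12 pairs of groups), so the numbers were not used as pairs. Alternatives changed the pseudocount, the filter, the scaling, the samples fitted, the replicate block, the summing of KRT81 with KRT86 and the libraries included. Some genes of the lists are not reported here by name.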

Additional observations from a re-analysis of the deposited data

Results flagged for a closer look

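Effects of the same contrast differed between groups for KRT86 and KRTAP2-3, each by the test of the difference itself (limma, Benjamini-Hochberg adjusted over all genes). They were not the only members to differ. In I-BET151 against JQ1 and against Molib 7 members passed, where 44.6% and 43.5% of all genes passed. KRT8 was among them, at -1.16 (adjusted p = 0.000219) and -1.09 (adjusted p = 0.000301). KRT86 was higher in the libraries labelled I-BET151 by 1.69 on the log2 scale than in JQ1 (adjusted p = 0.000152, both I-BET151 libraries above both JQ1 libraries) and by 1.66 than in Molib (adjusted p = 0.00016), where I-BET151 did not pass against DMSO and JQ1 and Molib were lower than DMSO. KRTAP2-3 differed in the same comparisons by 5.22 (adjusted p = 4.1e-06) and 4.89 (adjusted p = 4.67e-06), being higher than DMSO in I-BET151 and lower in JQ1 and Molib. In the knockdown table KRT86 differed by -0.71 between shM3_WT and shM3_CD (adjusted p = 0.00494), the first below and the second above B5. That difference was 0.03 once KRT81 and KRT86 were summed. The I-BET151 values rest on the libraries in which HEXIM1 was lower than in DMSO.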

How the results depend on the processing

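Of 1796 values computed under the alternatives, 94 lost a call, 24 gained one, 14 moved, 2 reversed, and the others kept their direction and their side of the threshold. Leaving out 1 library at a time, the members called ranged over 4 to 7 in shM3_WT against shM3, 2 to 8 in shM3_CD against shM3, 3 to 5 in shM3_WT against shM3_CD, 3 to 6 in I-BET151 against DMSO and 0 to 5 in MW-JQ1 against JQ1. With every gene kept that had 2 libraries above 0, 4 members were called in shM3_CD against shM3. With unweighted TMM factors, and with equal medians, 4 were called in shM3_WT against shM3. With the contrast's groups fitted alone, 5 were called in shM3_WT against shM3_CD, 3 in I-BET151 against DMSO and 5 in MW-JQ1 against JQ1. With genes above 0 in every library, chosen after seeing the data, 1 was called in MW-JQ1 against JQ1. Summing KRT81 with KRT86 reversed KRT86 in shM3_WT against shM3_CD (0.033) and against B5 (0.90). The cause was not tested. Over all genes, the calls in I-BET151 against DMSO were 4181 as reported, 2461 with its groups alone and 2724 with a replicate block. In MW-JQ1 against JQ1 they were 2010 as reported, 742 at 5 FPKM, 3135 with its groups alone and 226 with genes above 0, and 48 to 3135 with 1 library left out, the lowest being 50 and 48 without MW-JQ1 replicate 1 or 2. Leaving out 1 library, the all-gene calls ranged over 3654 to 5232 in shM3 against B5 (lowest without a shM3 library), 500 to 1792 in shM3_CD against shM3 (500 to 569 without 1 library of either group), 1781 to 4003 in shM3_WT against shM3_CD (1781 to 1955 without 1 library of either group), 2642 to 3942 in shM3_WT against B5 (lowest without a shM3_WT library), 2383 to 4016 in shM3_CD against B5 (lowest without a shM3_CD library), 2854 to 6244 in JQ1 against DMSO, 3056 to 6197 in Molib against DMSO, 1940 to 4333 in I-BET151 against DMSO and 0 to 492 in JQ1 against CTRL (492 without CTRL replicate 2). With the replicate block, which leaves out JQ1 of the DMSO table, members called were 6 in shM3 against B5, 6 in shM3_WT against shM3 and 4 in I-BET151 against DMSO (5 with the numbers of DMSO crossed, chosen after seeing the data). Left out was an alternative for duplicate rows, since each member has 1 row. Depth, which the tables do not give, limits the values near 0.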
